A study of Mus musculus with 6 samples.

Results

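The genes described are the matrix metalloproteinases (Mmp), the Adamts proteases and the tissue inhibitors of metalloproteinases (Timp) of mouse skin. Members were the protein-coding genes whose symbol is Mmp, Adamts or Timp followed by a number and whose FPKM averaged 0.1 or more across the 6 libraries (FPKM, fragments per kilobase of exon scaled to library depth). There were 39 of them, 18 Mmp, 17 Adamts and 4 Timp genes, among 28389 genes that reached that level. Skin RNA came from mice kept for 12 weeks under chronic restraint stress (CRS), in which an animal is repeatedly confined, and from control mice (CON), with 3 libraries in each group. The sources used here give no strain, sex, age or skin site. The design names 3 mice in each group and the labels 1 library for each, and p-values measure the spread between these libraries. The study concerns skin under psychological stress, and the comparison made here is CRS against CON.

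Mmps are zinc-dependent enzymes that cut collagens, gelatin, laminins and other matrix proteins, and most are made as inactive precursors. Adamts proteases are secreted relatives with thrombospondin repeats. They trim procollagens, cut the large proteoglycans versican and aggrecan, or act on fibrillin microfibrils. Timps bind the active site of Mmps, and Timp3 inhibits Adamts proteases as well. In skin, fibroblasts and keratinocytes are major sources, and the enzymes act in wound repair, hair growth and dermal turnover.

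Among the members, 4 had the AP-1 motif TGANTCA in the promoter window (250 bases before to 50 after the start, RefSeq, GRCm38.p6), and all 4 lie in the Mmp cluster of chromosome 9. AP-1 is the Fos and Jun factor through which cytokines are known to induce several Mmp genes. The motif reads the same on both strands. A window was given for 26 of the 39 members, so 15.4% of these held the motif, against 8.97% of all 27025 genes in the table. The windows of Mmp3, Mmp12 and Mmp13 are shown because their motif, in capitals, begins within 50 bases before the start site, at 46, 44 and 35 bases. The remaining one is Mmp20, where it begins 95 bases before. The windows printed lie on the plus strand at chr9:7445572-7445871, chr9:7347124-7347423 and chr9:7272264-7272563. Mmp12 has another window with no match. A match is a description of the letters and not a bound site.
Mmp3: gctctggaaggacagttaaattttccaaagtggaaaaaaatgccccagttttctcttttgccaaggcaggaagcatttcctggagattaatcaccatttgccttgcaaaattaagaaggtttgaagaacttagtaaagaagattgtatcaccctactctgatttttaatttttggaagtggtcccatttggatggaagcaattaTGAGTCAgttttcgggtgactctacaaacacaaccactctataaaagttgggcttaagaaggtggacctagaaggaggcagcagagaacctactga
Mmp12: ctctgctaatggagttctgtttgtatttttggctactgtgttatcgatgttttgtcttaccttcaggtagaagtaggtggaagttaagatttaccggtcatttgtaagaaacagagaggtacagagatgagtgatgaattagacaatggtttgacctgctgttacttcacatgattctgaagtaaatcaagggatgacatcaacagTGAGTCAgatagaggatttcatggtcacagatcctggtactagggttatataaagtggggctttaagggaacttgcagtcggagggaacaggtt
Mmp13: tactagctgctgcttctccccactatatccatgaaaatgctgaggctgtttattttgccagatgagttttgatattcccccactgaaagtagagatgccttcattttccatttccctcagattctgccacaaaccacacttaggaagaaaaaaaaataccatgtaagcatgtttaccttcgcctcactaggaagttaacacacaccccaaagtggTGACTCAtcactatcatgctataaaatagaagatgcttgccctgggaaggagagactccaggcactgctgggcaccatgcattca

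The libraries held 13.3 to 25.7 M fragments, recovered from the FPKM steps, and CON replicate 1 and CRS replicate 2 stood apart. In CON replicate 1, 14.2% of fragments came from the 13 mitochondrially encoded protein genes (1.76% to 3.62% elsewhere), and the 14 skeletal muscle markers tested summed to 15340 FPKM against 503.8 to 3182. Its 10 dermal fibroblast markers summed to 295.2 FPKM against 928.8 to 1446. Xist, the RNA of the inactive X chromosome, was at 2.80 FPKM there and at 0.0221 to 0.168 elsewhere, while Y-linked genes such as Ddx3y were present in all 6 libraries. Whether this library holds RNA of 1 animal was not tested. In CRS replicate 2, long transcripts were high and short ones low. Relative to the other CRS libraries, its median was -1.64 (log2) for the 2469 genes under 1000 nt of exon and 1.30 for the 1940 genes of at least 8000 nt (genes of at least 1 FPKM). The members had a median exon length of 5397 nt, against 2333 nt for all genes tested. Results are therefore also given without these libraries. CRS replicates 1 and 3 differed from the controls by length too. For genes of at least 8000 nt, their median deviations from the gene means were -0.431 and -0.666, against 0.272, -0.108 and 0.153 in the controls. Under 1000 nt they were 0.764 and 0.19, against 0.052, 0.102 and 0.345. Differences by length between the groups thus remain when CRS replicate 2 is left out. The keratinocyte markers Krt5 and Krt14 stood at 545.2 FPKM or more in every library, and the fibroblast collagen gene Col1a1 at 58.6 or more. In bulk tissue, fewer cells of a type and less RNA per cell cannot be told apart.

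None of the 39 members differed between CRS and CON after adjustment. Each had an adjusted p of 0.9999 with limma (Benjamini-Hochberg over all genes), and 0 of all genes (0.0%) passed. With limma's voom on the recovered fragments 0 genes passed as well. At an unadjusted p under 0.05 there were 0 members, against 2.55% of all genes tested. Of the 39 log2 fold changes 21 were above 0 (53.8%), where 32.2% of all genes were. The members' median was 0.007, from -0.77 for Mmp21 to 0.82 for Mmp27, and that of all genes was -0.20. With median-ratio scaling the median of all genes was 0.006 and that of the members 0.22, with 28 of 39 above 0 (71.8%) against 50.6% of all genes. Relative to all genes, the members' median was 0.21 under both scalings with all 6 libraries. It was 0.033 without CRS replicate 2 and -0.16 without both CON replicate 1 and CRS replicate 2. Above the median of all genes lay 28 members with all libraries and no rescaling. This fell to 20 without CRS replicate 2 and to 14 without both.

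**Figure D1:**
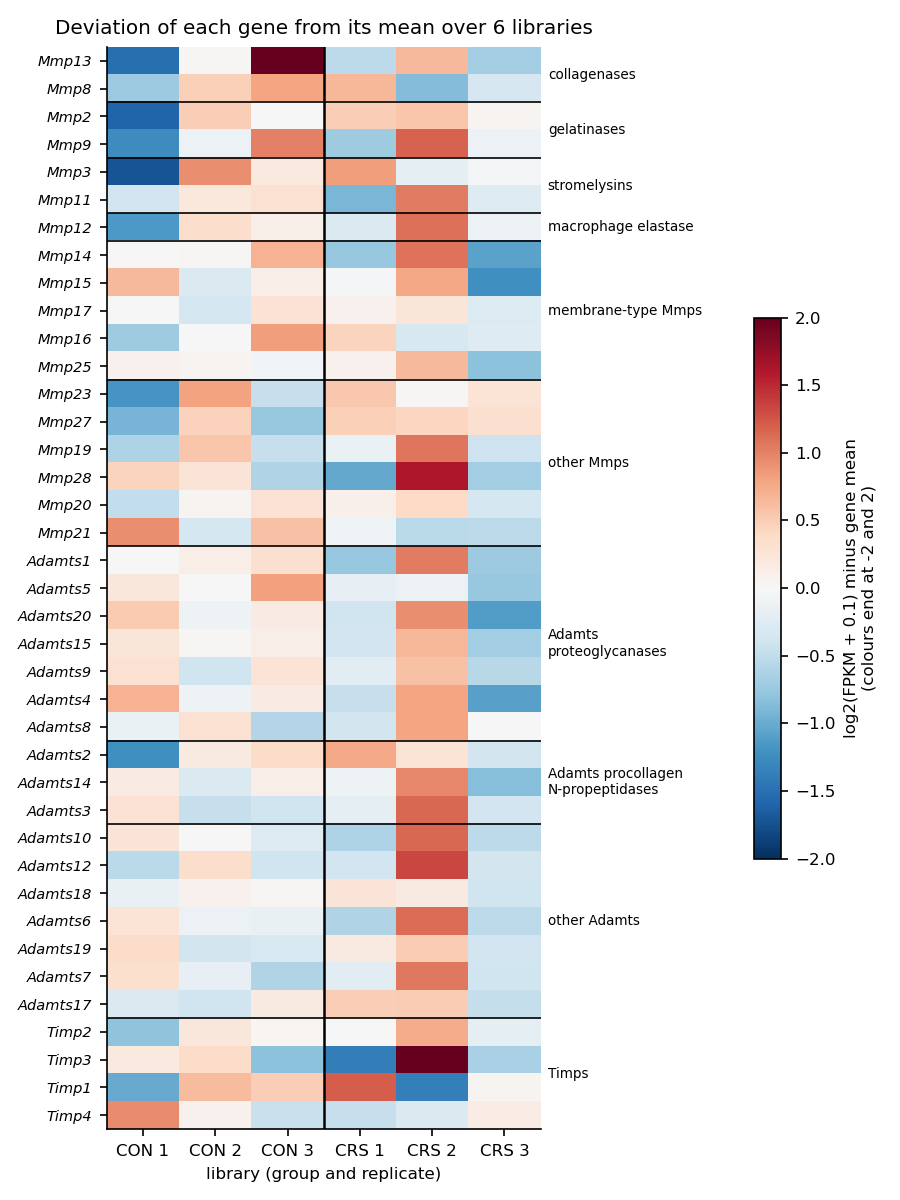
Each row is a member and each column a library, with groups divided by the vertical line and classes by horizontal ones. Colour is log2(FPKM + 0.1) minus the gene's mean over the 6 libraries; CRS replicate 2 has the highest value in 26 of the 39 rows and CON replicate 1 the lowest in 13.

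The pattern that ran through the members, drawn in the map of all 39 genes by library, lay between libraries. CRS replicate 2 held the highest of the 6 values in 26 members (66.7%), against 29.2% of all genes tested. CON replicate 1 held the lowest in 13 (33.3%), against 13.5% of all genes. With median-ratio scaling these were 24 members (26.9% of all genes) and 15 members (18.2% of all genes). The members lowest in CON replicate 1 were Mmp2, Mmp3, Mmp9, Mmp12, Mmp13, Mmp16, Mmp19, Mmp20, Mmp23, Mmp27, Adamts2, Adamts12 and Timp2.

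Collagenases cut fibrillar collagen, and both members stood under 1 FPKM on average. Mmp13, the main interstitial collagenase of rodents, had FPKM values of 0.0594, 0.357 and 1.77 in the controls and 0.214, 0.611 and 0.178 under CRS. The groups overlapped, and the range of the controls alone covers every CRS value. Its log2 fold change was -0.38 (SE 0.92), and 0.55 without CON replicate 3, which held the highest value. Only 3 fragments lay behind the value of CON replicate 1 and 63 behind the highest. Mmp8, the neutrophil collagenase, ranged from 0.128 FPKM in CRS replicate 2 to 0.621 FPKM in CON replicate 3, with 7 to 26 fragments. Of the 8 neutrophil markers, Ly6g and Mpo were under the filter, and the 6 others summed to 20.1 to 78.6 FPKM in the controls and 22.3 to 137.0 FPKM under CRS. Mmp1b reached at most 0.108 FPKM, from 3 fragments, and was under the filter.

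The gelatinases differed widely in level. Mmp2, which cuts denatured collagen and type IV collagen and is made largely by fibroblasts, was the most abundant protease of the set. The controls had 12.1, 52.3 and 37.3 FPKM of it and the CRS libraries 52.2, 54.6 and 38.5 FPKM. The low value is that of CON replicate 1, and the other 5 lie together across the groups. The resulting log2 fold change of 0.74 (SE 0.52, exact permutation p = 0.3, where 0.1 is the smallest possible) was 0.12 without CON replicate 1 and 1.17 without CON replicate 2. The fibroblast markers of that library were also low, and their part in the difference was not tested. Mmp9, the gelatinase of neutrophils, macrophages and activated keratinocytes, averaged 0.72 ± 0.60 FPKM in the controls and 0.84 ± 0.65 FPKM under CRS (SD, n = 3).

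Stromelysins have a broad range of substrates. Mmp3 was measured at 3.82, 24.5 and 14.7 FPKM in the controls and at 23.1, 11.2 and 12.6 FPKM under CRS. All 3 CRS values fell inside the CON range, the lowest again being CON replicate 1. With a log2 fold change of 0.41 (SE 0.64), it was -0.35 without CON replicate 1 and 0.97 without CON replicate 2. Mmp11, known from stroma around epithelia, had a mean of 2.86 FPKM and its highest value, 5.43 FPKM, in CRS replicate 2. Mmp10, a close relative of Mmp3, was under the filter at a mean of 0.0436 FPKM.

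Mmp12, the macrophage elastase, gave 0.110, 0.492 and 0.406 FPKM in the control libraries and 0.280, 0.902 and 0.329 FPKM in the stressed ones. The groups overlapped, and the log2 fold change was 0.46 (SE 0.67). It was -0.001 without CON replicate 1, the library in which the 8 macrophage markers summed to 149.3 FPKM against 252.3 to 438.1 in the others. Whether these go together was not tested. Mmp7, the matrilysin of many glandular epithelia, was at 0 in every library.

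The cluster on chromosome 9 holds 9 protein-coding Mmp genes next to each other, of which 6 are members. In order these are Mmp13, Mmp12, Mmp3, Mmp8, Mmp27 and Mmp20. Their mean levels ran from 0.253 FPKM for Mmp20, the enamel protease, to 14.98 FPKM for Mmp3. Mmp27 had 1.08, 3.00 and 1.23 FPKM in the controls and 3.04, 2.94 and 2.69 FPKM under CRS. Its CRS values lie close together, and CON replicate 2 lies among them. Here the log2 fold change was 0.82 (SE 0.46, exact permutation p = 0.3). Without CON replicate 2, the control among the CRS values, it was 1.26, at an unadjusted p of 0.0272 and a limma adjusted p of 1.0. Leaving out the control picked by its own Mmp27 value raises the difference by that choice, so this p is no support. In that fit 3.62% of all genes had an unadjusted p under 0.05. The log2 fold change of Mmp27 was 0.56 without CON replicate 1 and 0.645 without CON replicate 3.

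Of the 4 cluster genes with the AP-1 motif, Mmp3, Mmp12 and Mmp20 had log2 fold changes of 0.41, 0.46 and 0.095, and Mmp13 of -0.38. The AP-1 gene Fos averaged 5.38 FPKM in the controls and 7.59 FPKM under CRS (limma adjusted p = 0.9999). Its groups did not overlap, as in 1.65% of all genes with CRS higher. Jun averaged 22.6 and 16.5 FPKM, with groups that did overlap. Those of Fosl1 and Fosl2 overlapped too, with log2 fold changes of 0.071 and -0.13. A link of these genes to the motif was not tested.

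Membrane-type Mmps act at the cell surface. Mmp14 cuts collagen around cells and, with Timp2, activates the Mmp2 precursor. Its control values were 12.2, 12.3 and 19.8 FPKM, and its CRS values 7.16, 25.9 and 5.71 FPKM. CRS replicates 1 and 3 lie below every CON value and CRS replicate 2 above every one. The difference was -0.49 (log2, SE 0.56), and -1.16 (SE 0.28) without CRS replicate 2, at an unadjusted p of 0.00761 and a limma adjusted p of 0.192. Without CRS replicate 3 it was -0.074 and without CRS replicate 1 it was -0.235. Leaving out the only CRS value above the controls enlarges the fall by that choice, so the p without CRS replicate 2 is no support. In that fit 17.1% of all genes had an unadjusted p under 0.05. Each of the 6 endothelial markers, such as Pecam1 and Cdh5, was also highest in replicate 2 among the CRS libraries. They summed to 9.41, 30.3 and 9.01 FPKM there and to 46.9, 16.8 and 16.0 FPKM in the controls. This order was not particular to endothelium. By median deviation from the gene means, keratinocyte, dermal fibroblast, macrophage, hair follicle and skeletal muscle markers were also highest in replicate 2 among the CRS libraries. Neutrophil markers and mitochondrially encoded genes were not. The part of any of these in the result was not tested.

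Mmp15, a relative of Mmp14, had the order of Mmp14 within CRS, at 1.387, 2.499 and 0.551 FPKM. Mmp16, Mmp17 and Mmp25 did not exceed 0.564 FPKM in any library. Mmp25, a leukocyte enzyme, was the member nearest the threshold with a mean of 0.105 FPKM and 2 to 28 fragments. Just outside it, Adamts13, the protease of von Willebrand factor, had 0.0985 FPKM. Mmp24 was under the filter at 0.0231 FPKM. Of the 5 membrane-type members 4 had a log2 fold change under 0, where 67.8% of all genes did. Under median-ratio scaling 2 did, and 1 without CRS replicate 3. Without CRS replicate 2 it was 4, without CON replicate 2 it was 5, and without both CON replicate 1 and CRS replicate 2 it was 5. In the order of these settings, the shares of all genes above 0 were 50.6%, 42.9%, 38.8%, 31.5% and 37.5%.

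Among the other Mmps, Mmp23 was the most abundant, with 1.334, 5.596 and 2.283 FPKM in the controls and 4.666, 3.206 and 3.832 FPKM under CRS. The CRS values lie within the CON range. Its log2 fold change was 0.56 (SE 0.52), which was 0.10 without CON replicate 1 and 1.098 without CON replicate 2. Mmp28, known as epilysin and made by keratinocytes, was at 0.546, 0.466 and 0.214 FPKM in control skin and at 0.134, 1.36 and 0.195 FPKM in stressed skin. CRS replicate 2 was 10.1 times CRS replicate 1 and 6.96 times CRS replicate 3, from 135, 10 and 19 fragments. Of the Mmp28 exon length, 12.0% overlaps a gene on the other strand. Mmp19 ranged from 0.913 FPKM in CON replicate 1 to 3.16 FPKM in CRS replicate 2. Of its exon length 28.3% overlaps genes on the other strand, and without stated strand use their fragments cannot be told apart. Mmp21, known for left-right patterning of the embryo, had 6 to 21 fragments.

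**Figure D2:**
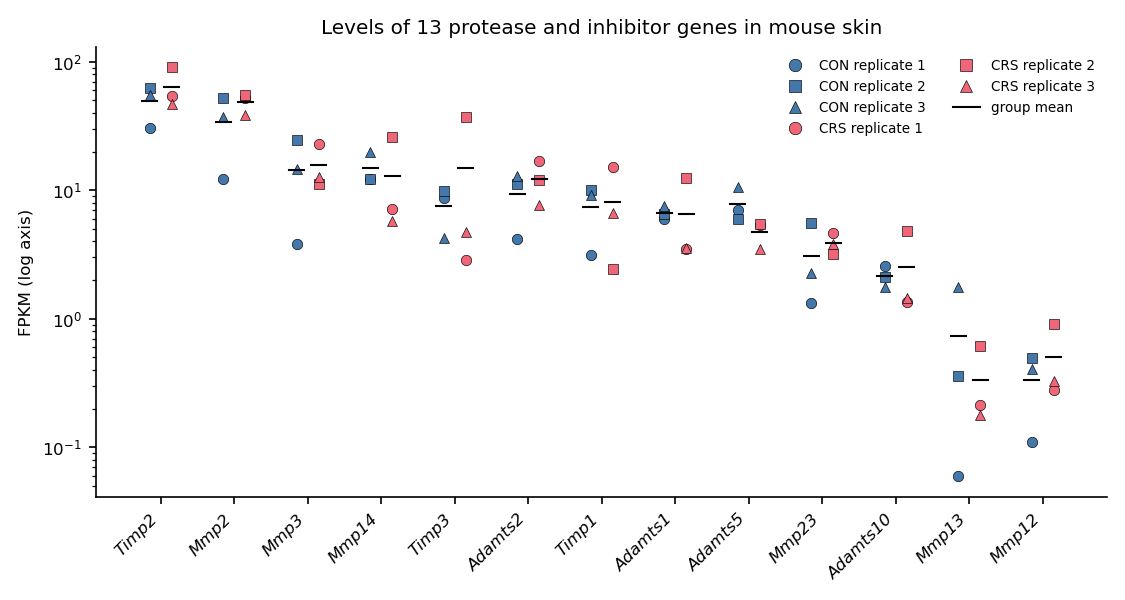
FPKM on a log axis for the members of at least 5 FPKM on average and the most abundant member of each class; symbols mark replicates, blue CON and red CRS, and bars the group means. Groups overlap in all but Adamts5, where the CRS values of 3.50 to 5.48 FPKM lie below the CON values of 6.02 to 10.6 FPKM.

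The Adamts proteoglycanases cut versican, aggrecan and related core proteins. Adamts5 (ENSMUSG00000022894), the main aggrecanase of mouse cartilage and a versicanase, had 6.98, 6.02 and 10.6 FPKM in the controls and 5.32, 5.48 and 3.50 FPKM under CRS. It was the 1 member whose groups did not overlap (CRS lower), 2.56% of the members where 5.19% of all genes did so in that direction. With CRS higher there were 0 members, against 1.65% of all genes. Its difference was -0.70 (log2, SE 0.36, exact permutation p = 0.1, adjusted p of limma 0.9999), or -0.50 relative to all genes. With each library left out in turn it ran from -0.865 to -0.463. The groups overlapped after correction for exon length, an alternative added after the data were seen (-0.48, SE 0.34), where CRS replicate 1 lay above CON replicates 1 and 2.

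Adamts1, its neighbour on chromosome 16 and also a versicanase, had another pattern. Controls had 5.94, 6.51 and 7.49 FPKM and stressed mice 3.47, 12.4 and 3.55 FPKM. The CON values are close together, while those of CRS lie on both sides of them. Its log2 fold change of -0.30 (SE 0.50) became -0.90 (SE 0.18) without CRS replicate 2, at an unadjusted p of 0.00362 and a limma adjusted p of 0.192. Without CRS replicate 1 it was 0.008 and without CRS replicate 3 it was -0.007. As for Mmp14, the library left out held the only CRS value above the controls, so the p without it is no support. In that fit 17.1% of all genes had an unadjusted p under 0.05. The ratio of Adamts1 to Adamts5 FPKM was 2.26 in CRS replicate 2 and 0.653 to 1.08 in the other libraries.

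Adamts20 is the gene mutated in the belted mouse, whose white belt comes from a loss of pigment cell precursors in the embryo. It measured 2.84, 1.79 and 2.18 FPKM in control skin and 1.44, 3.77 and 0.838 FPKM in stressed skin. CRS replicates 1 and 3 were again below every CON value and CRS replicate 2 above. The difference was -0.39 (log2, SE 0.56), and -0.96 without CRS replicate 2 (unadjusted p = 0.0434, limma adjusted p = 0.278). That p is no support either, as the only CRS value above the controls was left out. Without CRS replicate 3 the sign turned, to 0.066. Adamts9, its closest relative, averaged 0.71 ± 0.20 FPKM in the controls and 0.67 ± 0.33 FPKM under CRS, and 12.0% of its exon length overlaps genes on the other strand.

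Adamts15 averaged 1.40 ± 0.11 and 1.25 ± 0.71 FPKM in the controls and under CRS, and Adamts4 0.52 ± 0.18 and 0.40 ± 0.34 FPKM (SD, n = 3). Adamts8, the neighbour of Adamts15 on chromosome 9, averaged 0.16 ± 0.079 and 0.22 ± 0.14 FPKM. Of the 7 proteoglycanases 6 had a log2 fold change under 0, with a median of -0.30, where 67.8% of all genes were under 0. Under median-ratio scaling 5 did, with a median of -0.062. Without CRS replicate 2 all 7 did, with a median of -0.81, and without CRS replicate 3 only 3, with a median of 0.011. The median of all genes was -0.214 without CRS replicate 2 and -0.092 without CRS replicate 3.

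The procollagen N-propeptidases remove the amino-terminal propeptide of fibrillar procollagens. Adamts2, whose loss makes skin fragile, had 4.198, 11.27 and 12.8 FPKM in the controls and 16.93, 12.04 and 7.679 FPKM under CRS. The groups overlapped, with the lowest value in CON replicate 1. Here the log2 fold change was 0.45 (SE 0.49), and -0.048 without CON replicate 1. Its substrate Col1a1 was lowest in that library too, at 58.6 FPKM against 176.5 to 630.6 FPKM in the others. Adamts14 had a mean of 1.03 FPKM. Adamts3, which also takes part in activating the lymphatic growth factor Vegfc, had a mean of 0.384 FPKM, with its highest value of 0.881 FPKM in CRS replicate 2.

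Of the other Adamts members, Adamts10, which is known to act on fibrillin microfibrils, led with 2.56, 2.12 and 1.77 FPKM in the controls and 1.34, 4.85 and 1.45 FPKM under CRS. CRS replicates 1 and 3 lie below the CON values and CRS replicate 2 above them. The difference was 0.003 (log2, SE 0.54), -0.57 without CRS replicate 2 and 0.315 without CRS replicate 1. Its close relative Adamts6, at a mean of 0.466 FPKM, had the same order, with 1.03 FPKM in CRS replicate 2 and 0.240 and 0.259 FPKM in the other CRS libraries.

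Adamts12 and Adamts7, which cut cartilage oligomeric matrix protein, had means of 1.76 and 0.339 FPKM and their highest values, 4.05 and 0.742 FPKM, in CRS replicate 2. Adamts17 and Adamts19 had means of 0.313 and 0.378 FPKM. Adamts18 ranged only from 0.826 to 1.37 FPKM. Adamts16 was under the filter at 0.0703 FPKM. Of the 7 other Adamts members 6 had a log2 fold change above 0, with a median of 0.20, where 32.2% of all genes were above 0. Without CRS replicate 2 this was 1 of 7, with a median of -0.16, where 38.8% of all genes were above 0 and their median was -0.214.

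The 4 Timps had 4 different orders over the libraries. Timp2, the most abundant member, had 30.6, 62.6 and 55.0 FPKM in the controls and 53.6, 90.2 and 47.1 FPKM under CRS. CON replicate 1 was lowest, CRS replicate 2 highest, and the other values overlapped between groups. Its log2 fold change was 0.37 (SE 0.40), which was 0.056 without CON replicate 1 and 0.57 without CON replicate 2. Timp3, which stays bound to matrix and inhibits Adamts and Adam proteases besides Mmps, gave 8.70, 9.79 and 4.23 FPKM in control skin and 2.84, 37.0 and 4.77 FPKM in stressed skin. Its value in CRS replicate 2 was 13.03 times that of CRS replicate 1 and 7.77 times that of CRS replicate 3. The difference was 0.17 (log2, SE 0.86), -0.93 without CRS replicate 2 and 0.895 without CRS replicate 1. Of the Timp3 exon length, 21.3% overlaps Syn3 on the other strand.

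Timp1, the inducible inhibitor of wounded tissue, ran the other way. Controls had 3.16, 10.1 and 9.15 FPKM and stressed mice 15.2, 2.45 and 6.70 FPKM, so that both the highest and the lowest value were in CRS. It had a log2 fold change of -0.068 (SE 0.69), which was 0.60 without CRS replicate 2, -0.69 without CRS replicate 1 and 0.17 under median-ratio scaling. Timp1 has the shortest exon length of the members, 888 nt, and Timp3 one of 8144 nt. Timp4 was highest in CON replicate 1, at 3.25 FPKM, and at 1.16 to 1.82 FPKM elsewhere, with a log2 fold change of -0.40 (SE 0.48).

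Summed over genes, Timp FPKM were 0.784 to 1.21 times the Mmp FPKM in the controls and 0.751 to 1.14 times under CRS. Timp2 made up 67.0% to 79.1% of the Timp sum and Mmp2 32.0% to 55.5% of the Mmp sum. For the proteins that act together on the Mmp2 precursor, the ratio of Timp2 to Mmp14 FPKM was 2.51, 5.09 and 2.78 in the controls and 7.48, 3.48 and 8.24 under CRS. CRS replicate 2 lay among the controls and the other CRS libraries above them.

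**Figure D3:**
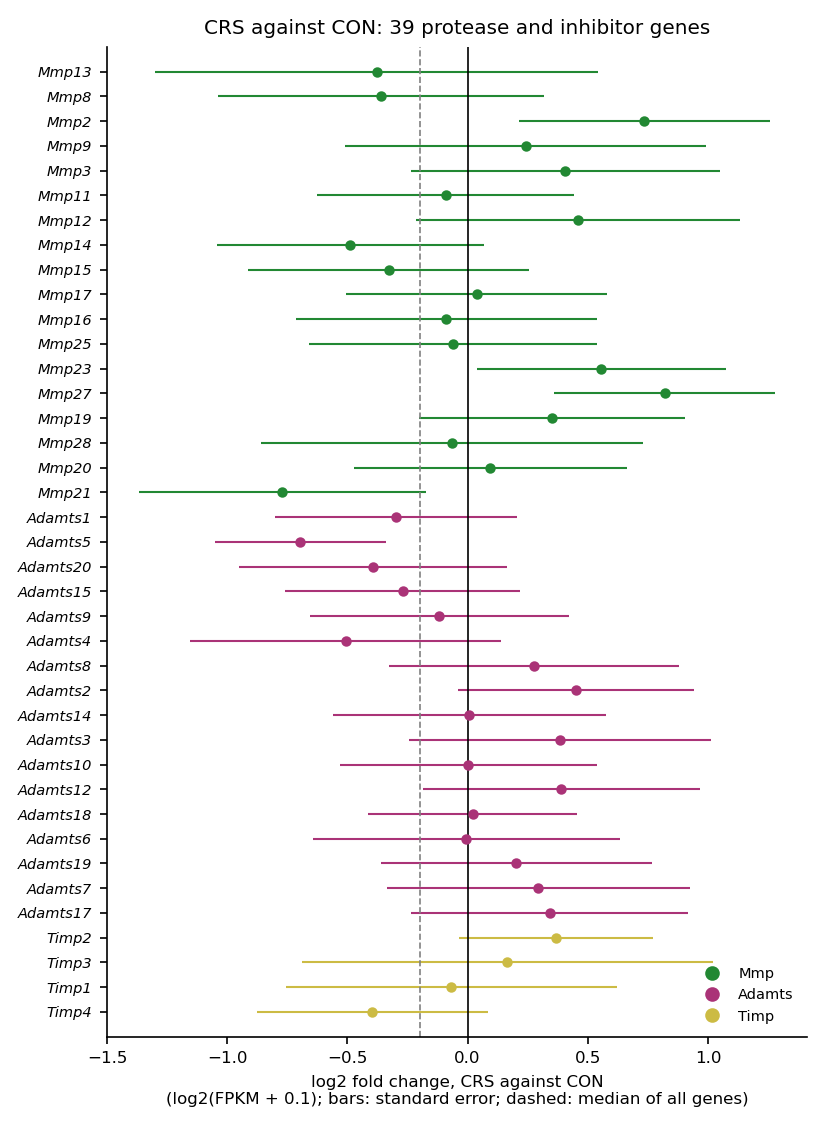
Log2 fold change of each member, CRS against CON, with its standard error, in green for Mmp, purple for Adamts and yellow for Timp. The values run from -0.77 to 0.82, the dashed line is the median of all genes at -0.20, and 0 members passed the adjusted threshold.

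The departure of CRS replicate 2 varied with exon length, as the plot of its excess against length shows. Relative to the mean of the other CRS libraries, its values were higher in 32 of the 39 members, by a median of 1.01 (log2), where the median of all genes tested was 0.077. For genes of at least 1 FPKM the median difference was 0.56. Among these it was 0.979 and 1.023 around 5073 and 5627 nt, lengths near the members' median of 5397 nt. Across genes, which share the libraries and are not independent replicates, Pearson's r between log2 exon length and this difference was 0.43 over the 39 members and 0.58 over 14366 genes of at least 1 FPKM. Among such genes of 2000 to 4000 nt, CRS replicate 2 was highest in 32.7% of all genes and in 4 of 6 members, and among those of 4000 to 6000 nt in 57.8% and in 4 of 5. Among those of at least 8000 nt it was highest in 73.8% and in 5 of 8.

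After the length correction, the members' median difference was 0.11. CRS replicate 2 was then highest in 13 members (33.3%) against 25.3% of all genes, and CON replicate 1 lowest in 14, against 15.6% of all genes. Timp3 had a corrected difference of 2.11, Mmp28 of 1.78, Mmp11 of 1.25 and Mmp14 of 0.97. Adamts5 went from 0.34 to -0.94, Adamts2 from 0.077 to -1.15 and Mmp16 from -0.42 to -1.62. The groups did not overlap, with CRS higher, in 4 members (10.3%, against 5.5% of all genes), which were Timp2, Mmp27, Adamts3 and Adamts7. With CRS lower there were 0 members, against 3.36% of all genes.

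**Figure D4:**
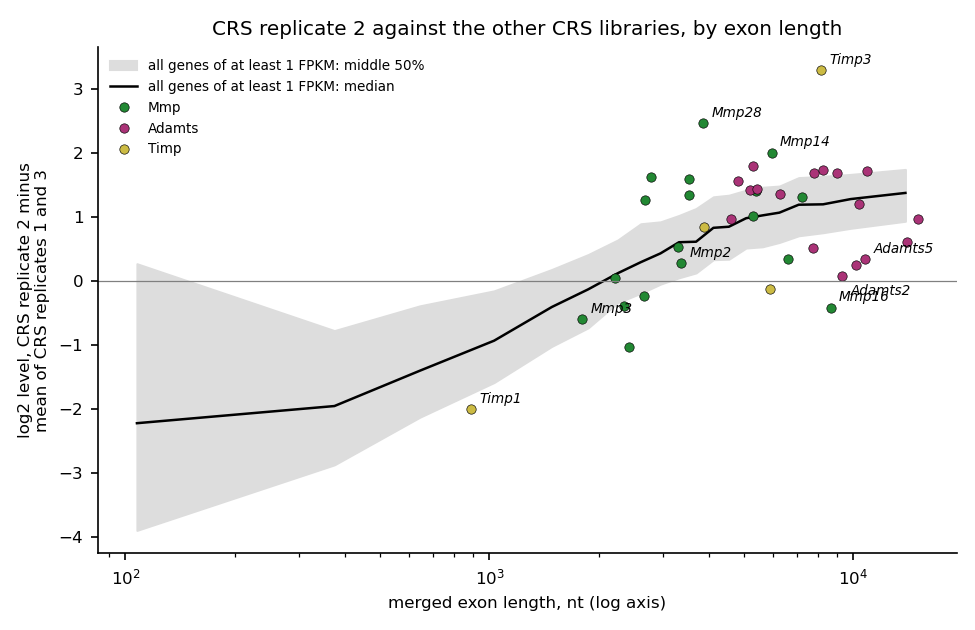
Points are the members, at their exon length (log axis) and the log2 level of CRS replicate 2 minus the mean of CRS replicates 1 and 3; the line and band are the median and middle 50% of all genes of at least 1 FPKM. Timp1 sits at -2.001 on the left and Timp3 at 3.29 above the band.

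Without CRS replicate 2, 10 of the 39 log2 fold changes were above 0 (25.6%), against 38.8% of all genes. The groups then did not overlap, with CRS lower, in 9 members (23.1%), below the 27.4% of all genes. These were Mmp14, Mmp28, Adamts1, Adamts4, Adamts5, Adamts6, Adamts10, Adamts15 and Adamts20. With CRS higher there were 0 members, against 7.46% of all genes. At an unadjusted p under 0.05 there were 3 members (7.69%, against 17.1% of all genes), Mmp14, Adamts1 and Adamts20, and with limma 0 passed adjusted.

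Without both CON replicate 1 and CRS replicate 2, 9 members were above 0 (23.1%, against 37.5% of all genes). CRS was lower without overlap in 13 members (33.3%, against 31.1% of all genes) and higher in 1, Adamts3 (10.5% of all genes). At an unadjusted p under 0.05 there were 2 members, against 13.6% of all genes, and with limma 0 passed adjusted. Leaving out CON replicate 1 alone gave 18 members above 0 (46.2%, against 35.0% of all genes), and leaving out CRS replicate 3 gave 30 (76.9%, against 42.9%). Without CON replicate 2 the groups did not overlap, with CRS higher, in 5 members (12.8%, against 4.41% of all genes). These were Mmp2, Mmp19, Mmp23, Mmp27 and Adamts12, and all 5 are among those lowest in CON replicate 1.

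**Figure D5:**
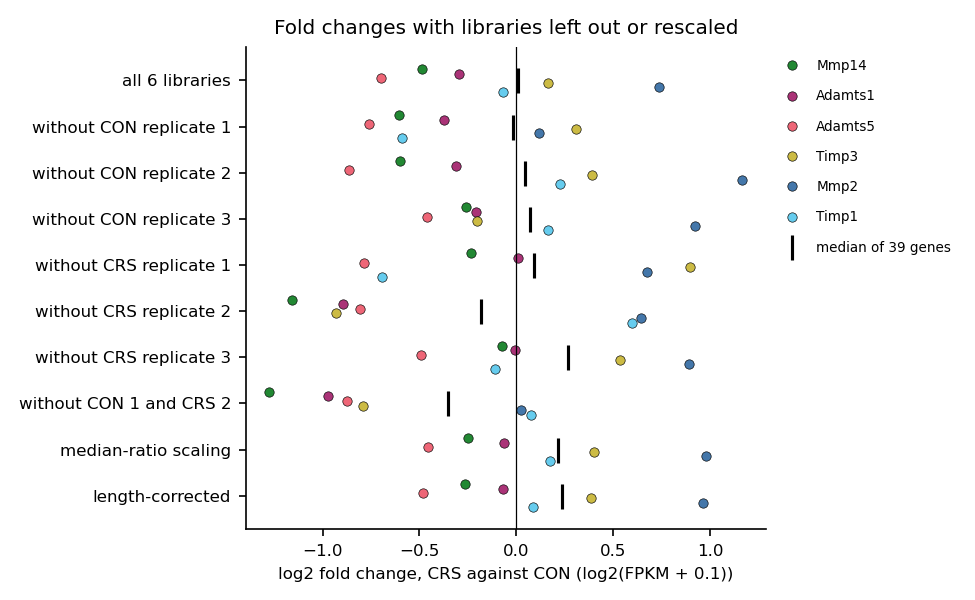
Log2 fold changes of 6 members (dots) and the median of the 39 (bars) with all libraries, with libraries left out, and with 2 other scalings. Adamts5 lies under 0 in every row, from -0.87 to -0.46, Mmp2 above 0 in every row, and Timp3 and Timp1 change side.

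Of 64 other genes of the pathway, which activate, inhibit, induce or are cut by these enzymes or are their relatives, 61 were tested. Of these 37 were above 0 (60.7%, against 32.2% of all genes) and 24 under 0, with a median of 0.12, and 0 passed. By role, 3 of 7 activating proteases had log2 fold changes above 0, 5 of 10 inhibitors and clearance genes, 5 of 11 inducers and cofactors and 6 of 11 Adam sheddases. It was 3 of 4 Adamts-like proteins and 15 of 18 matrix substrates. The matrix substrates above 0 were 10 of 18 without CON replicate 1 (55.6%, against 35.0% of all genes). They were 6 of 18 without CRS replicate 2 (33.3%, against 38.8% of all genes). Over all roles, 14 of the 61 were above 0 without CRS replicate 2 (23.0%, against 38.8% of all genes).

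For Reck, a membrane-anchored Mmp inhibitor, the difference was -0.064 (log2, SE 0.47), and for Bsg, known as an inducer of Mmps in neighbouring cells, -0.29 (SE 0.35). The groups did not overlap, with CRS lower, in 3 of the 61 (4.92%, against 5.19% of all genes) and, with CRS higher, in 1 (1.64%, against 1.65%), so these shares are near those of all genes. Serpine2, an inhibitor of plasminogen activators, had 5.80, 3.97 and 3.60 FPKM in the controls and 1.42, 3.43 and 1.41 FPKM under CRS, with a log2 fold change of -1.15 (SE 0.45) and a limma adjusted p of 0.9999. The others with CRS lower were Plaur, the urokinase receptor (-0.47, SE 0.35), and Tnf, the inflammatory cytokine (-0.76, SE 0.48), and the 1 with CRS higher was Fos (0.51, SE 0.31). Furin, the convertase that activates Mmp14 and Adamts precursors, was at 16.7 FPKM in CRS replicate 2, the library in which Mmp14 was highest too, and at 2.85 to 5.35 FPKM in the others. Of the same role, Pcsk5, Pcsk6, Pcsk7, Plau and Plat were also highest in that library, and Plaur was not. A link between Furin and Mmp14 was not tested.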

How the data were processed

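Total RNA of 6 skin libraries was sequenced, and the authors deposited FPKM per Ensembl gene ID, 1 file per library. The submitters' processing notes name HISAT2 and GRCm39; for the counting program, annotation and use of strand the entry is "not given in the sources used here". GENCODE M21 (GRCm38), which held 54079 of 54146 IDs, supplied symbols, types and exon lengths. Whole fragments were recovered from FPKM times exon length (98.0% to 98.3% of values up to 100 fragments lay within 0.05 of a whole number), which gave the depth.

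Tests ran on log2(FPKM + 0.1), which understates fold changes of low genes. Genes averaging 0.1 FPKM or more were compared with limma 3.58.1 (R 4.3.3; trend, two-sided, threshold 0.05). Exact permutation tests of 3 against 3 are two-sided and cannot go below 0.1. The fit was tested on simulated data with independent noise in each gene. These hold no length trend and no shift of a whole library, so that test does not cover such differences. The members, classes and lists were chosen with earlier results of these data known. Library values are given for members of at least 5 FPKM, those whose groups did not overlap and the leading member of each class, the others by class. Of the pathway list, genes with groups apart (at most 3 per role), Reck and Bsg are named. Mmp15, Mmp27, Mmp28, Adamts20, Jun and Furin were singled out after their values were seen. Fosl1 and Fosl2 were added later as the other AP-1 genes of the list. Alternatives were other pseudocounts, filters, scaling and variance model, a replicate block, libraries left out, limma's voom on recovered fragments and, added after the data were seen, a lowess correction for exon length (span 0.3).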

Additional observations from a re-analysis of the deposited data

How the results depend on the processing

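No member and no gene passed under any of the 16 alternatives. The lowest adjusted p of a member was 0.192, without CRS replicate 2. The number of members above 0, 21 with all libraries, was 10 to 30 with each library left out, 9 without both CON replicate 1 and CRS replicate 2, and 12 of 21 members with a filter at 1 FPKM, which tests fewer genes. The members' median, 0.007 with all libraries, ran from -0.355 without both libraries to 0.265 without CRS replicate 3. The within-group SD of the members' library medians was 0.398 (log2). That SD includes CON replicate 1 and CRS replicate 2 and is not the error of a group difference. Members with groups apart and CRS lower numbered 1 to 9 (2.56% to 23.1%) with each library left out, against 7.11% to 27.4% of all genes. There were 13 (33.3%, against 31.1%) without both libraries and 0 (against 3.36%) with the length correction. With CRS higher it was 0 to 5 (up to 12.8%, against 2.75% to 7.46%), 1 (2.56%, against 10.5%) and 4 (10.3%, against 5.5%). Pathway genes above 0, 37 in all, numbered 14 to 47 with a library left out and 15 without both.

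Of 206 single-gene values under alternatives, 24 had the other sign. With each library left out, the log2 fold changes ran from -0.35 to 0.97 for Mmp3, -0.048 to 0.75 for Adamts2, -0.001 to 0.75 for Mmp12, -0.93 to 0.90 for Timp3, -0.69 to 0.60 for Timp1, -1.22 to 0.55 for Mmp13, -0.57 to 0.32 for Adamts10 and -0.90 to 0.008 for Adamts1. Without both libraries they were -0.22 for Timp2, -0.15 for Mmp3, -0.79 for Timp3, -0.073 for Adamts2, 0.075 for Timp1, -0.44 for Mmp12 and -0.44 for Adamts10. Timp1 was 0.17 with median-ratio scaling and 0.085 with the length correction. Adamts10 was -0.006 at a pseudocount of 0.01 and -0.002 with voom.

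Replicate numbers are not said to mark a shared litter or day. Same-numbered libraries correlated at -0.12, 0.062 and 0.087 in their deviations from the group means, and none correlated best with its own number. With 3 libraries in each group these correlations depend on each other. They therefore cannot decide whether the mice were paired. With a replicate block 21 members were above 0 and 0 passed. Members under 1 FPKM rest on as few as 2 fragments in a library.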
